A study of Rattus norvegicus with 48 samples.

Results

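The 8 genes described here, Mog, Mobp, Mag, Mbp, Cnp, Sox10, Pmp22 and Prx, were the rows of both count tables that carried these symbols, 8 of 32883 genes. They code for proteins of the myelin sheath or for a regulator of the cells that make it. RNA had been sequenced from the posterior eye, that is the tissue at the back of the eyeball, and from the retina of the same 24 female Long-Evans rats, which gave 48 libraries. The design asked how ovariectomy (OVX), the surgical removal of the ovaries, and age bear on gene expression in both tissues. The 4 groups of 6 animals were aged OVX rats of 9 to 10 months, aged sham-operated rats of 9 to 10 months, young OVX rats of 3 to 4 months and young sham-operated rats of 3 to 4 months. All animals had surgery, and the sham animals kept their ovaries. The animals called aged here are called middle-aged by the submitters.

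Myelin is the lipid-rich membrane wrapped around axons. Oligodendrocytes make it in the brain and optic nerve, and Schwann cells make it in peripheral nerves such as those of the orbit. In most mammals, the rat included, the fibres of ganglion cells run without myelin inside the retina and gain it behind the eyeball. MOG and MOBP belong to central myelin and periaxin (Prx) to peripheral myelin, while MBP, MAG and CNP are found in both kinds. PMP22 is a protein of compact peripheral myelin that other cells such as fibroblasts also make. SOX10 is a transcription factor of oligodendrocytes, Schwann cells and melanocytes that binds the letters ACAAAG, and many myelin genes are known targets.

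The start regions of Mobp and Mag, members that varied together between posterior eye libraries, are shown with those of Prx and Pmp22, which varied together apart from them. Each window runs from 250 bases before to 50 bases after the transcription start, 5′ to 3′ on the strand of the gene, from RefSeq (build GRCr8). Capitals mark ACAAAG or its reverse complement CTTTGT. The windows lie at chr8:128746982-128747281 on the plus strand (Mobp), chr1:95290995-95291294 on the minus strand (Mag), chr1:91914171-91914470 on the plus strand (Prx) and chr10:48294682-48294981 on the plus strand (Pmp22).
Mobp: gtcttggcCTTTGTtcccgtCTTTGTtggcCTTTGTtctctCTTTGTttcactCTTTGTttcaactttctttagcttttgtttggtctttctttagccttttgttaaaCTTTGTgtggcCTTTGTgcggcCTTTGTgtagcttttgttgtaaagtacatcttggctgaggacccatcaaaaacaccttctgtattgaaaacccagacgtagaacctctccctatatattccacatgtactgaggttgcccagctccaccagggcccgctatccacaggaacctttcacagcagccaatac
Mag: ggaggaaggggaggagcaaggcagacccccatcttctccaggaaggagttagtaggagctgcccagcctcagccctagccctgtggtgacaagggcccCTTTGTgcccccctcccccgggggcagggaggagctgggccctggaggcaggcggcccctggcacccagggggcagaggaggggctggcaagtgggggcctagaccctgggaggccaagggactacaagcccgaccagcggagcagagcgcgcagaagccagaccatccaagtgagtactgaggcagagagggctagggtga
Prx: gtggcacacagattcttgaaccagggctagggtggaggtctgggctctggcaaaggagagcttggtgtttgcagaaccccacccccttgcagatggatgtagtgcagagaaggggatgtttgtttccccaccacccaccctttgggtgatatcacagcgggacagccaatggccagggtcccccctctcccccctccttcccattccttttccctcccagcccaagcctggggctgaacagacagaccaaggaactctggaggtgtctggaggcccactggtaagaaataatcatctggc
Pmp22: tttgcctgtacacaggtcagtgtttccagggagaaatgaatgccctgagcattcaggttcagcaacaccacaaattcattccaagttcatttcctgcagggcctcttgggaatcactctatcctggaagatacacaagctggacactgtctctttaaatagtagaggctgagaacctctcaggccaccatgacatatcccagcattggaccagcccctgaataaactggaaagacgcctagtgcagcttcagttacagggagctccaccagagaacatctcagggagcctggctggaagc

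The Mobp window held 8 matches, all written CTTTGT, within a stretch rich in T upstream of the start, and 3 of 33469 rat windows of the same length held at least 8. The Mag window and the Cnp window held 1 match each, and the windows of Prx and Pmp22 held 0. Of the 2 windows of Mbp, 1 held 1 match and the other 0. At least 1 match stood in 18.8% of the 33469 windows, both strands counted, so a single match was common. Windows were matched for 6 of the 8 genes, the others being Mog and Sox10. The letters searched were chosen after the sequences had been seen, and a match describes letters only.

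Posterior eye libraries held 11470945 to 22971367 counts and retina libraries 12916146 to 30737547. Replicates varied more in the posterior eye, with a biological coefficient of variation of 33.4%, against 12% for retinas. Posterior eye libraries held RNA of several tissues. The summed level of 6 skeletal muscle genes ran from 7347 to 33249 CPM (counts scaled by library total and TMM factor) there, that of 9 melanocyte genes from 1351 to 5076 CPM and that of 6 rod genes from 64.8 to 30713 CPM. In retina libraries the rod genes summed to 78465 to 95358 CPM, and 6 lens genes to 2436 to 43242 CPM. In bulk tissue, fewer cells of a type and less RNA per cell cannot be told apart. A difference was called at an adjusted p under 0.05 over all genes tested, 16401 for posterior eyes and 15481 for retinas. Of the 8 genes, all were tested in the posterior eye, while Mobp was below the filter on low counts in the retina, which left 7.

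In 4 posterior eye libraries Mobp and Opalin RNA was nearly missing. These libraries came from aged OVX animal 21, aged sham animals 14 and 15 and young sham animal 5, and Mobp had 2, 2, 4 and 12 counts in them, in that order. The other 20 libraries had at least 100 Mobp counts, up to 4905. Opalin, an oligodendrocyte membrane protein, had 0 counts in each of the 4 libraries, which allows a level of up to 0.13 to 0.177 CPM by counting error alone (3 counts), against a median of 2.61 CPM over all 24. Gfap, an intermediate filament of astrocytes, stood at 0.84, 0.30, 0.72 and 24.4 CPM in the libraries of animals 21, 14, 15 and 5, against a median of 95.2 CPM over all 24 libraries. The summed level of 5 astrocyte markers was less extreme in them, from 158 CPM in animal 14 to 299 CPM in animal 15, over a whole range of 158 to 730 CPM. What sets these libraries apart was not tested.

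Prx, in contrast, stood at 9.86, 9.34, 11.6 and 15.1 CPM in the libraries of animals 21, 14, 15 and 5, within the range of 8.55 to 18.6 CPM over all 24. Pmp22 stood at 155, 162, 160 and 178 CPM in the same libraries, within its range of 124 to 227 CPM. Mbp did not reach zero in them: it kept 76.4, 72.2, 59 and 74.2 CPM in animals 21, 14, 15 and 5, against a median of 331 CPM over all 24 libraries. There were 142 to 678 Mbp counts per Mobp count in the 4 libraries and 9.05 to 21.7 in the other 20. Mobp counts per Mog count were 0.182 to 0.8 and 3.49 to 7.11 in the same order. Both ratios contain Mobp, by which the libraries were divided, so their distance follows in part from that choice. In the 4 libraries they rest on only 2 to 12 Mobp counts each. Ranges, correlations and the OVX and age differences of the affected genes are therefore also given for the 20 libraries with at least 100 Mobp counts, a choice made after seeing these values. The 4 libraries are samples set aside, not a group of the study. They were set aside by their own Mobp counts. Values of Mobp, and of genes that vary with it, over the other 20 therefore follow in part from that choice.

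**Figure D1:**
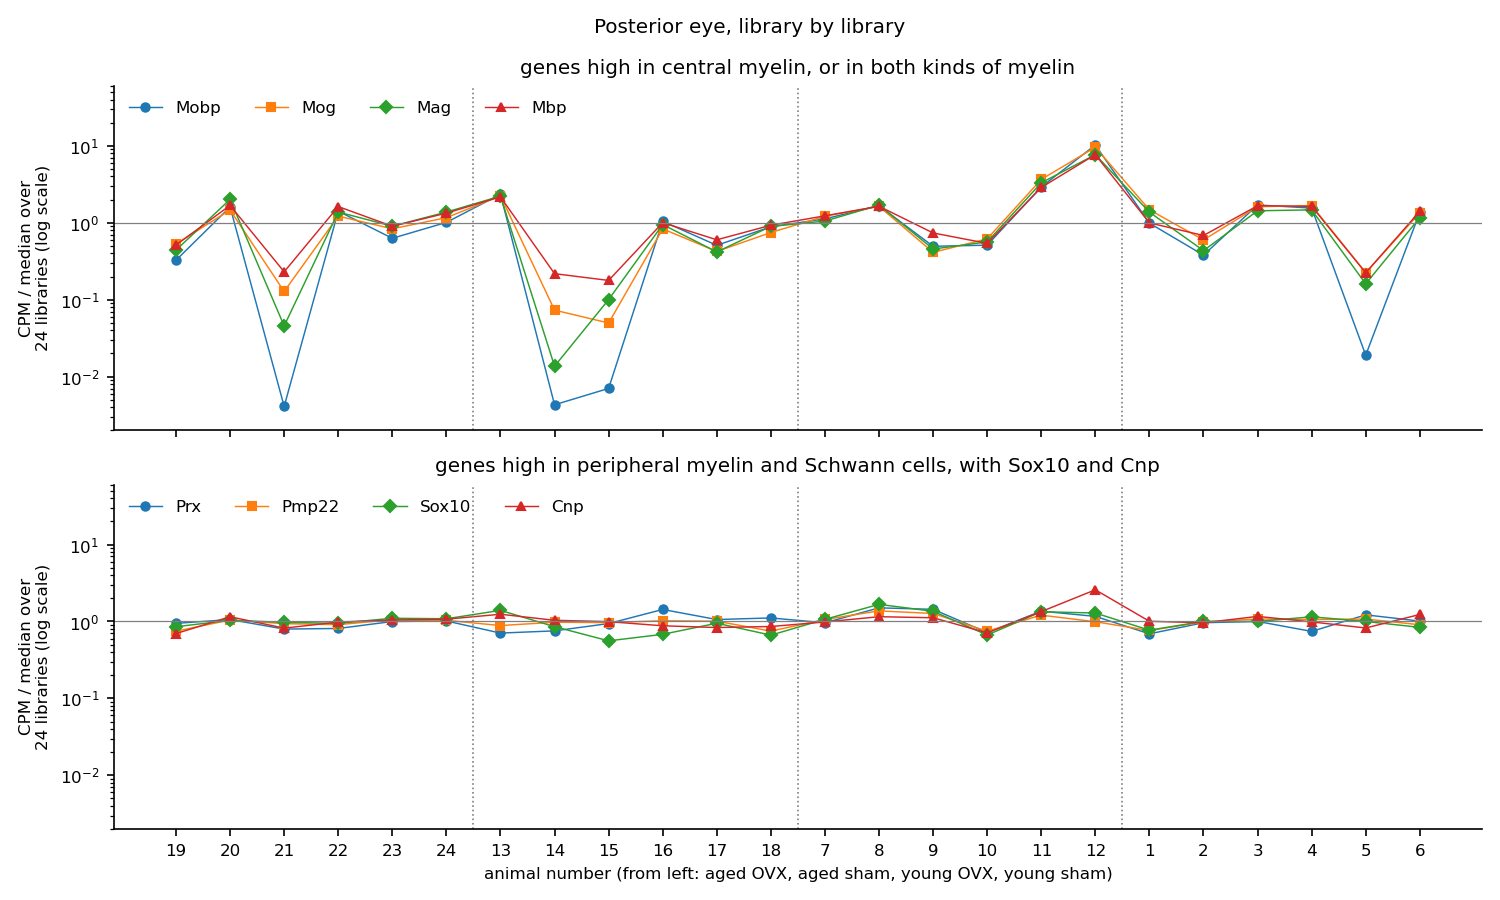
Level of each gene in the 24 posterior eye libraries, as CPM over its median across the 24 libraries on a log axis, with animals ordered from aged OVX on the left through aged sham and young OVX to young sham; each point is 1 library. Mobp, Mog, Mag and Mbp (upper panel) drop together in animals 21, 14, 15 and 5 and peak together in animal 12, while Prx, Pmp22, Sox10 and Cnp (lower panel) stay within a narrow band apart from Cnp in animal 12.

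Against the retina, the posterior eye held more RNA of every central or shared myelin gene among the 8, and 7 of the 8 genes were called higher in the fit of all 48 libraries. Of the 17153 genes tested there 93% were called, 47.8% higher and 45.2% lower, so a call alone says little and the sizes carry the comparison. The median log2 difference over all genes tested was 0.05. Levels in the next paragraphs on both tissues are means over 24 libraries on the scale of that joint fit, and adjusted p-values are from edgeR's quasi-likelihood test.

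Mobp, a structural protein of compact central myelin, averaged 39.2 CPM in the posterior eye and 0.15 CPM in the retina, a log2 fold change of 7.69 ± 0.62 (SE, adjusted p = 1.9e-15). Retina libraries held 0 to 11 Mobp counts each and 73 in all, with 0 in 6 of 24 libraries, where a count of 0 allows up to 0.162 to 0.233 CPM. Mog, an adhesion protein on the outer face of the central sheath, averaged 7.13 CPM in the posterior eye and 1.33 CPM in the retina (2.20 ± 0.31, adjusted p = 1.9e-08). Mog was thus detected at 12 to 44 counts in every retina library, whereas Mobp was near the limit of detection. Mbp, which holds the cytoplasmic faces of the membrane together, averaged 473 CPM in the posterior eye and 12.0 CPM in the retina (5.18 ± 0.29, adjusted p = 8.1e-21). Mag, the adhesion protein next to the axon, averaged 11.9 CPM in the posterior eye and 1.19 CPM in the retina (3.17 ± 0.35, adjusted p = 2.9e-11). Cnp, an enzyme and scaffold of the non-compact sheath, differed less, with 118 CPM in the posterior eye and 34.1 CPM in the retina (1.78 ± 0.08, adjusted p = 1.1e-23).

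Sox10 averaged 50.5 CPM in the posterior eye and 1.14 CPM in the retina (5.52 ± 0.13, adjusted p = 2.2e-34). Pmp22 averaged 173 CPM in the posterior eye and 67.8 CPM in the retina (1.36 ± 0.10, adjusted p = 3.5e-16). Prx was the gene whose tissue difference was not called: it averaged 13.2 CPM in the posterior eye and 11.3 CPM in the retina (0.30 ± 0.17, adjusted p = 0.09). With the animal as a block the Prx difference was 0.42 and was called (adjusted p = 0.031), and by limma-voom it was 0.48 (adjusted p = 0.016). Ncmap, a protein of non-compact myelin in Schwann cells, separated the tissues widely, with 3.16 CPM in the posterior eye and 0.02 CPM in the retina (6.93 ± 0.24, adjusted p = 8.4e-29). Prx had 59 to 475 counts in every retina library, while Ncmap had 0 counts in 16 of 24. Without the 4 posterior eye libraries low in Mobp, the same 7 genes were called, with Mobp at 7.94 and Prx at 0.29 (adjusted p = 0.13) on the log2 scale.

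The other lists of myelin genes were described in the same way. Of 14 further central myelin genes, all tested, 13 were called higher in the posterior eye and 0 lower, with a median log2 difference of 3.56. Opalin stood at 7.60 ± 0.73 and Ermn, a cytoskeletal protein of oligodendrocytes, at 3.82 ± 0.16. Enpp6, an enzyme of newly forming oligodendrocytes, was the one not called, at 7.16 CPM in the posterior eye and 7.21 CPM in the retina (0.03 ± 0.26). Of 13 tested peripheral and Schwann cell genes (15 listed), 9 were called higher and 3 lower, with a median of 1.74. The lower ones were Drp2, a partner of periaxin, Dhh, a Schwann cell signal, and Ngfr, a neurotrophin receptor, at -0.25 ± 0.09, -1.28 ± 0.10 and -1.10 ± 0.08. Of 8 tested genes shared by both kinds of myelin, 7 were called higher and 1, Cmtm5, lower. All 10 genes listed for the node and paranode, the places along an axon where myelin ends, were called lower in the posterior eye, with a median of -2.33. The 2 with the highest CPM, Nfasc and Ank3, averaged 24.7 and 72.0 CPM in the posterior eye and 164 and 156 CPM in the retina.

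Between animals of the posterior eye, the genes fell far apart in how much they varied. Over 24 libraries Mobp ran from 0.113 through a median of 27.5 to 282 CPM, a 2500-fold range, Mag from 0.118 through 8.65 to 66.5 CPM, a 562-fold range, and Mog from 0.241 through 4.84 to 46.4 CPM, a 193-fold range. Mbp ran from 59 through 331 to 2549 CPM, a 43.2-fold range. Over the 20 libraries with at least 100 Mobp counts the ranges were 31.5-fold for Mobp (8.95 to 282 CPM), 23.2-fold for Mog, 18.4-fold for Mag and 14.9-fold for Mbp. Without young OVX animal 12, the highest in each, the range of Mobp over 23 libraries was 712-fold, and that of Cnp was 1.93-fold. The remaining genes were steadier, at 3.71-fold for Cnp, 2.98-fold for Sox10, 2.18-fold for Prx and 1.84-fold for Pmp22. In the retina, in contrast, Prx was the most variable of the 7 tested genes, from 2.97 through 11.9 to 28 CPM (9.41-fold), followed by Sox10 from 0.31 through 1.09 to 2.60 CPM (8.37-fold), and Cnp was the steadiest, from 31.3 through 35.2 to 40.9 CPM (1.31-fold).

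**Figure D2:**
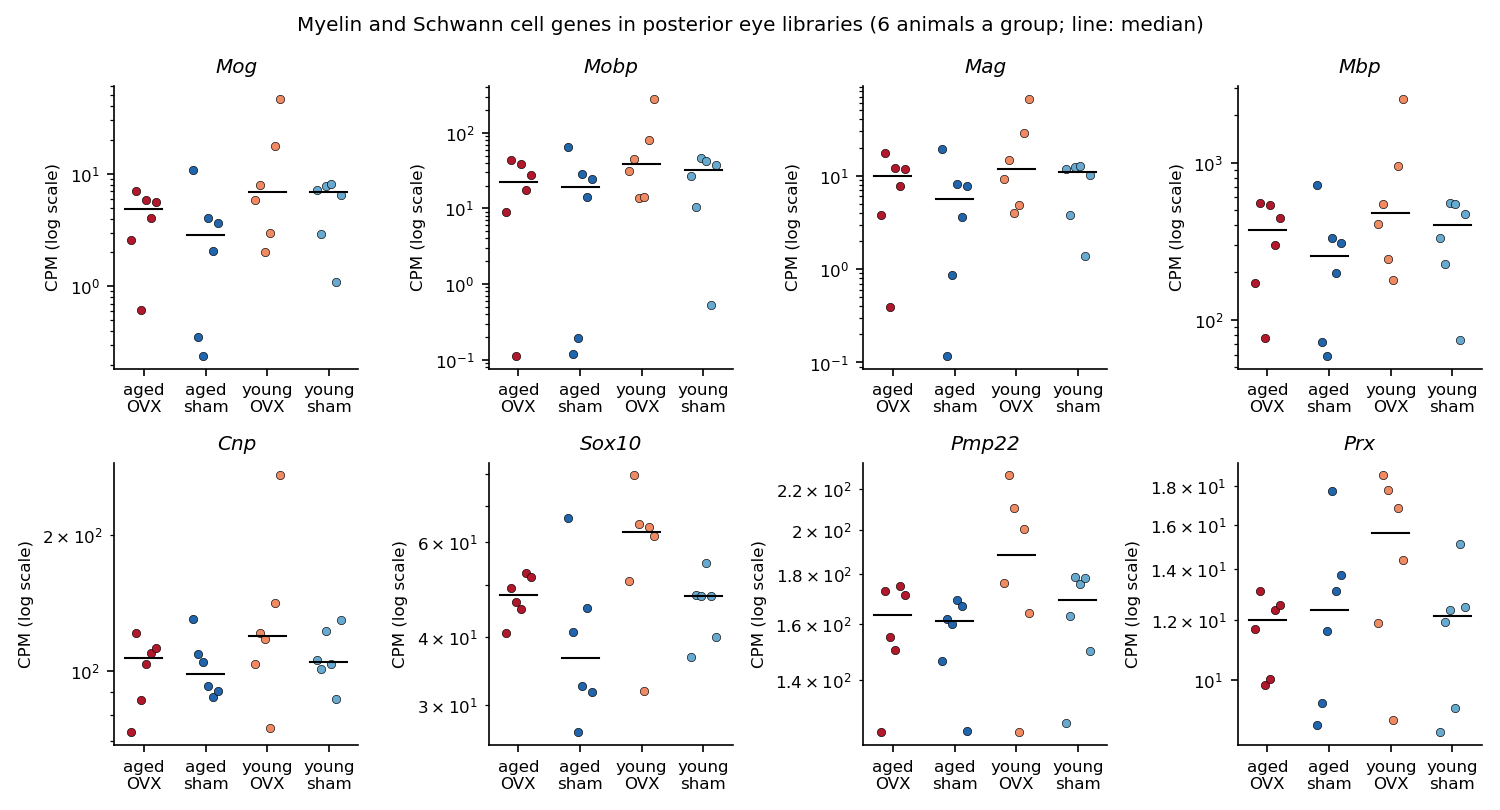
Level of the 8 genes in posterior eye libraries, in CPM on a log axis, with aged OVX, aged sham, young OVX and young sham from left to right; points are animals (6 a group) and lines are group medians. The groups overlap for all 8 genes, and young OVX animal 12 is the highest point of Mog, Mobp, Mag, Mbp and Cnp.

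No member was called between OVX and sham in the posterior eye at either age. In this tissue 0.0061% of all genes (1 of 16401) were called between young OVX and young sham animals, and 0% between aged OVX and aged sham animals or for the mean of both ages, so 0 of 8 members was the background rate. DESeq2 also called 0 of 8 in each of these comparisons, though it called more of all genes than edgeR, as counted in the last paragraph. At an unadjusted p under 0.05 by edgeR there were 0 members in young animals, 0 in aged animals and 1 for the mean of both ages. Of all 16401 genes, 1023, 422 and 938 had such a p-value in that order. In young animals Mobp was 13.6, 38.3 and 282 CPM (lowest, median and highest) in the OVX group, against 0.522, 32.3 and 46.8 CPM in the sham group. Mog was 2.00, 6.91 and 46.4 CPM in young OVX animals, against 1.09, 6.83 and 8.12 CPM in young sham animals. Mbp was 179, 476 and 2549 CPM in young OVX animals, against 74.2, 399 and 552 CPM in young sham animals. The medians were close for Mog, and all groups overlapped. The upper end of the young OVX group came from animal 12.

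The log2 differences of young OVX over young sham were 1.50 ± 1.06 for Mobp, 1.31 ± 0.78 for Mog, 1.29 ± 0.85 for Mag and 1.15 ± 0.66 for Mbp. They were 0.35 ± 0.21 for Cnp, 0.36 ± 0.19 for Sox10, 0.34 ± 0.18 for Prx and 0.18 ± 0.12 for Pmp22. The adjusted p-values of these 8 differences lay between 0.86 and 0.91 by edgeR. Without young OVX animal 12 the values were 0.42 for Mobp, 0.37 for Mog, 0.48 for Mag, 0.34 for Mbp and 0.05 for Cnp, so 1 library carried most of the mean difference of these 5 genes. For the 20 libraries with at least 100 Mobp counts the differences were 1.23 for Mobp and 1.08 for Mog, and no member was called. Beside these values, 13 of 14 further central myelin genes lay higher in young OVX animals (0 called, median 0.66), as did 5 of 13 peripheral genes (0 called, median -0.05), against a median of -0.01 over all genes tested. These counts include animal 12 and are not independent of the values of the members. The 14 central genes summed to 86.0, 146 and 338 CPM (lowest, median and highest) in young OVX animals. In young sham animals the sums were 92.7, 109 and 145 CPM. All 9 tested melanocyte markers (median 0.44), all 6 lens markers (median 0.88) and 3 of 4 astrocyte markers (median 0.26) also lay higher, 0 of them called. All 5 sebaceous gland markers (median -4.55, each with an unadjusted p under 0.05 by edgeR), all 6 rod markers (median -0.40) and all 5 adipocyte markers (median -0.18) lay lower, 0 of them called. The part of these tissues in the values was not tested.

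In aged animals Mobp was 0.113, 22.5 and 44.1 CPM (lowest, median and highest) in aged OVX animals, against 0.118, 19.2 and 64.4 CPM in aged sham animals, a log2 difference of 0.06 ± 1.05. Mbp was 76.4, 370 and 557 CPM in aged OVX animals, against 59, 254 and 720 CPM in aged sham animals (0.30 ± 0.66). Prx was 9.86, 12.0 and 13.1 CPM in aged OVX animals, against 8.74, 12.4 and 17.7 CPM in aged sham animals (-0.09 ± 0.18). All 8 adjusted p-values by edgeR rounded to 1, and each gene's groups overlapped. Without the 4 libraries low in Mobp, of which 1 was aged OVX and 2 were aged sham, Mobp was -0.28 and Mog -0.04. Aged sham animal 13 was the highest of its group in Mog, Mobp, Mag, Mbp, Cnp and Sox10. Without it the differences were 0.76 for Mobp, 1.06 for Mog, 1.11 for Mag, 0.83 for Mbp and 0.42 for Sox10. Prx moved the other way, to -0.19.

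For the mean of both ages all 8 differences of OVX over sham were positive, from 0.11 ± 0.09 for Pmp22 to 0.86 ± 0.60 for Mag. Of all 16401 genes, 8034 lay higher in this comparison. Sox10 had the smallest p-value, with a mean of 53.2 CPM over OVX and 43.2 CPM over sham animals (0.29 ± 0.14, adjusted p = 0.84 by edgeR), and its difference was 0.28 without young OVX animal 12. Mobp stood at 0.78 ± 0.74, at 0.22 without that animal and at 0.47 in the 20 libraries with at least 100 Mobp counts. Without young OVX animal 12 Mag was 0.44 and Cnp 0.0056, and without aged sham animal 13 Mag was 1.20.

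Age differences in the posterior eye were not called for any member either, and 0% of all genes was called with age in sham or in OVX animals by edgeR, where 0 and 2 members had an unadjusted p under 0.05 in that order. Of all 16401 genes, 481 and 1663 had such a p-value in the same order. DESeq2 called 0 members in both comparisons, though it called more of all genes than edgeR, as counted in the last paragraph. In OVX animals all 8 genes lay lower with age, as did 8836 of all 16401 genes. All 14 further central myelin genes, 10 of 13 peripheral genes and all 10 node and paranode genes lay lower too, 0 of them called. The 5 tested retinal ganglion cell markers all lay lower as well, 0 of them called. Mobp averaged 22.8 ± 17.2 CPM in aged OVX animals and 77.7 ± 103 CPM in young OVX animals (SD, n = 6 each), a log2 difference of -1.77 ± 1.07, with an adjusted p of 0.62 by edgeR. Mog stood at -1.68 ± 0.80 (adjusted p = 0.48 by edgeR) and Cnp at -0.45 ± 0.21 (adjusted p = 0.47 by edgeR). Without young OVX animal 12 these differences were -0.69 for Mobp, -0.75 for Mog and -0.15 for Cnp, and in the 20 libraries with at least 100 Mobp counts -1.50, -1.44 and -0.41 in the same order. This comparison shares the young OVX libraries, animal 12 included, with that of young OVX against young sham. In the same comparison all 6 lens markers (median -2.62), all 9 melanocyte markers (median -0.39), all 4 fibroblast markers (median -0.53), all 6 rod markers (median -0.47) and 3 of 4 astrocyte markers (median -0.68) also lay lower. All 5 adipocyte markers lay higher (median 0.43), and 0 of all these markers were called. Their part in the values was not tested. In sham animals the 8 differences with age lay between -0.66 for Mog and 0.09 for Prx, with adjusted p-values that rounded to 1 by edgeR, and in the 20 libraries Mog stood at -0.32 and Prx at 0.31. The interaction of OVX and age was called for 0 of 8 members and 0% of all genes, with Mobp at -1.44 ± 1.48 and Prx at -0.44 ± 0.26. Mobp was -0.38 there without young OVX animal 12 and -1.51 in the 20 libraries.

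**Figure D3:**
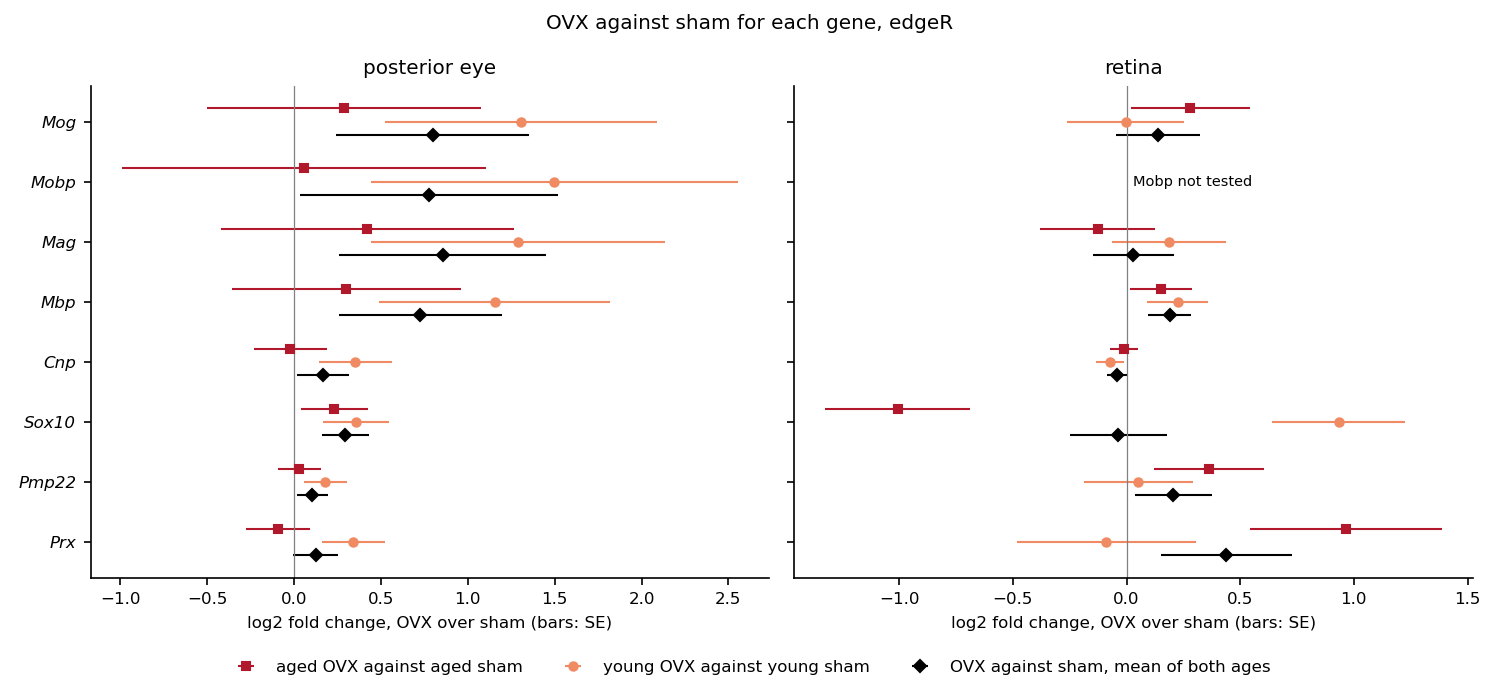
Log2 fold change of OVX over sham (points) with its SE (bars) for each gene in the posterior eye (left) and the retina (right), in aged animals, in young animals and as the mean of both ages. Bars of Mog, Mobp, Mag and Mbp are wide in the posterior eye, and retinal Sox10 lies at -1.01 in aged and 0.93 in young animals; none of the differences was called.

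In the retina no member was called for OVX or age by edgeR, where 0.0194% of 15481 genes were called between young OVX and young sham animals (0.0129% higher), 0.00646% between aged OVX and aged sham animals and 0.0517% for the mean of both ages. DESeq2 called 0 of 7 in these OVX comparisons too, and more of all genes than edgeR, as counted in the last paragraph. By edgeR 1, 2 and 0 members had an unadjusted p under 0.05 in the order young, aged and mean of both ages. In young animals 1807 of all 15481 genes had such a p-value. The 2 in aged animals were Prx and Sox10. For aged animals and the mean of both ages the number over all genes is not given here. Those counts are therefore not read against a background. Mbp and Cnp, found in both kinds of myelin, had close group means. Mbp averaged 12.7 ± 2.0 CPM in aged OVX animals, 11.4 ± 0.9 CPM in aged sham animals, 14.1 ± 4.3 CPM in young OVX animals and 12.0 ± 1.2 CPM in young sham animals (SD, n = 6 each). Cnp averaged 36.2 ± 4.0 CPM in aged OVX, 36.3 ± 2.5 CPM in aged sham, 34.2 ± 2.5 CPM in young OVX and 35.9 ± 1.0 CPM in young sham animals. Log2 differences of OVX over sham were 0.15 ± 0.14 in aged and 0.23 ± 0.13 in young animals for Mbp, and -0.01 ± 0.06 in aged and -0.07 ± 0.06 in young animals for Cnp. Without young OVX animal 7 the difference of Mbp in young animals was 0.038. Mag and Mog stayed between 0.69 and 2.21 CPM in every library, and their differences of OVX over sham ran from -0.13 to 0.28.

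**Figure D4:**
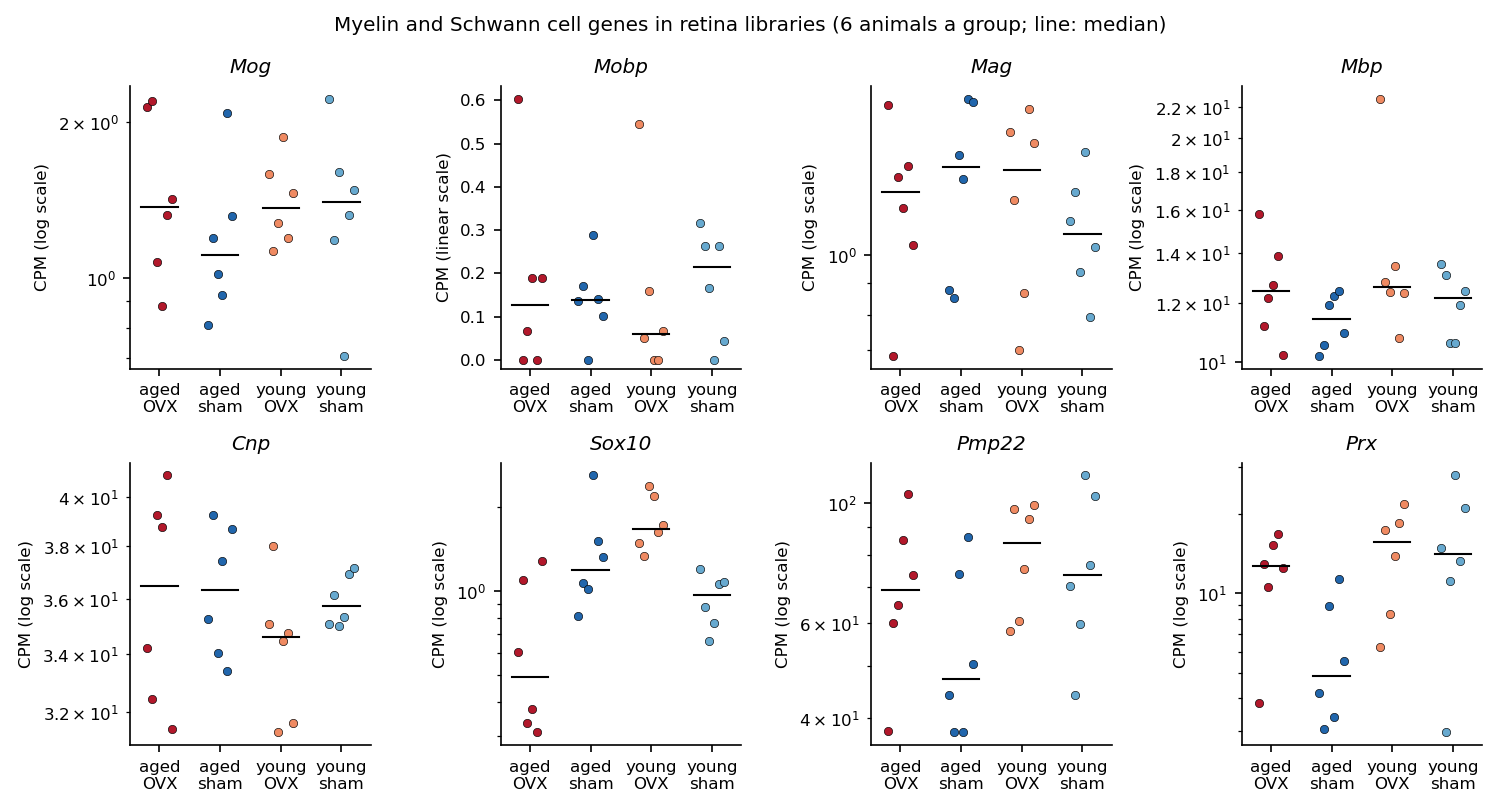
Level of the 8 genes in retina libraries, in CPM on a log axis (linear for Mobp, which has libraries at 0), with aged OVX, aged sham, young OVX and young sham from left to right; points are animals (6 a group) and lines are group medians. Young OVX animals lie above all young sham and all aged OVX animals for Sox10, and aged sham animals are lowest in median for Prx.

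Sox10 was the retinal gene with the largest group differences relative to error, at a low level of 4 to 75 counts per library. It was 0.31, 0.49 and 1.28 CPM (lowest, median and highest) in aged OVX animals, against 0.81, 1.19 and 2.60 CPM in aged sham animals. In young animals it was 1.33, 1.67 and 2.38 CPM in the OVX group, against 0.66, 0.97 and 1.20 CPM in the sham group. The aged groups overlapped, while all 6 young OVX animals lay above all 6 young sham animals and above all 6 aged OVX animals. Of all 15481 genes, 1.46% had groups that did not overlap between young OVX and young sham animals, and 0.743% between aged OVX and young OVX animals. The log2 difference of OVX over sham was -1.01 ± 0.32 in aged animals (adjusted p = 0.58 by edgeR) and 0.93 ± 0.29 in young animals (adjusted p = 0.21 by edgeR). The interaction of OVX and age, the test of the difference between these values, was -1.94 ± 0.43 with an adjusted p of 0.15 by edgeR, where 0.0452% of all genes were called, and -1.96 with an adjusted p of 0.015 by DESeq2. DESeq2 called more genes for the interaction than edgeR, as counted in the last paragraph.

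In OVX animals the aged group lay 1.38 ± 0.31 lower in Sox10 than the young group on the log2 scale, with an adjusted p of 0.080 by edgeR and 0.0087 by DESeq2. It was called by edgeR when aged OVX animal 24 was left out (-1.70, adjusted p = 0.037). With all libraries edgeR called 0.0711% of all genes in this comparison, 0.0323% lower. DESeq2 called more genes in it than edgeR, as counted in the last paragraph. In the same comparison 8 of 9 tested central myelin genes lay lower (0 called, median -0.32), Ermn at -1.29 ± 0.30 (adjusted p = 0.092 by edgeR) and Enpp6 at -1.42 ± 0.38 (adjusted p = 0.19 by edgeR). Markers of the pigment epithelium moved in the same directions as Sox10. In aged OVX against young OVX retinas 4 of 5 lay lower, 2 of them called, Ttr at -1.64 ± 0.29 (adjusted p = 0.019 by edgeR) and Rgr at -1.51 ± 0.27 (adjusted p = 0.019 by edgeR), and for the interaction 4 of 5 lay lower and 3 were called, with a median of -2.09. The 5 markers summed to 487 to 542 CPM in aged OVX, 647 to 982 CPM in aged sham, 554 to 776 CPM in young OVX and 535 to 724 CPM in young sham retinas. Much of these sums was Rlbp1, which alone averaged 449 CPM over all retina libraries (395 to 495 CPM). For the interaction 8 of 9 melanocyte markers also lay lower (0 called, median -0.88). The part of these cells in the Sox10 values was not tested.

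Prx in the retina averaged 12.0 ± 4.5 CPM in aged OVX animals and 6.08 ± 3.35 CPM in aged sham animals, against 14.4 ± 6.1 CPM in young OVX animals and 15.2 ± 8.6 CPM in young sham animals (SD, n = 6 each). The aged sham animals, at 3.07, 4.85 and 11.3 CPM (lowest, median and highest), overlapped with every other group. Aged sham lay 1.31 ± 0.42 lower than young sham on the log2 scale (adjusted p = 0.24 by edgeR, with 0.0388% of all genes called and 0.0129% lower), and aged OVX lay 0.97 ± 0.42 higher than aged sham (adjusted p = 0.75 by edgeR). Pmp22 followed with smaller values, -0.50 ± 0.24 for aged sham over young sham and 0.36 ± 0.24 for aged OVX over aged sham. Lens markers were also lowest in aged sham retinas. They summed to a median of 19715 CPM in aged OVX and 6395 CPM in aged sham retinas, and of 25706 CPM in young OVX and 27762 CPM in young sham retinas. All 6 lay lower in aged sham than in young sham retinas (0 called, median -1.93), and all 6 higher in aged OVX than in aged sham retinas (0 called, median 1.16). Periaxin is also known from lens fibre cells of mice. The part of lens RNA in the Prx values was not tested beyond the relation between libraries given next.

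Which genes varied together between animals of 1 group was measured on log2 CPM with group means removed. In the retina 21 pairs of members were compared, and 1 had an adjusted permutation p under 0.05. Prx and Pmp22 had Pearson's r = 0.94 and Spearman's rho = 0.95 over 24 libraries (permutation p = 1e-05, the smallest 100000 resamples allow, adjusted p = 0.00021), and r stayed at 0.94 without the 2 libraries farthest from the median. Of 77 relations of members with marker lists, added after the data were seen, 2 passed. In such relations, in either tissue, the level of a list was the mean log2 CPM of its tested genes, not its summed CPM. Prx with lens markers gave r = 0.94 and rho = 0.89 (permutation p = 1e-05, adjusted p = 0.00077), with r = 0.89 without the 2 farthest libraries, and Pmp22 with lens markers r = 0.84 and rho = 0.79 (permutation p = 2e-05, adjusted p = 0.00077), with r = 0.80 without them. Sox10 with pigment epithelium markers gave r = 0.48 and rho = 0.46 (permutation p = 0.026, adjusted p = 0.33).

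**Figure D5:**
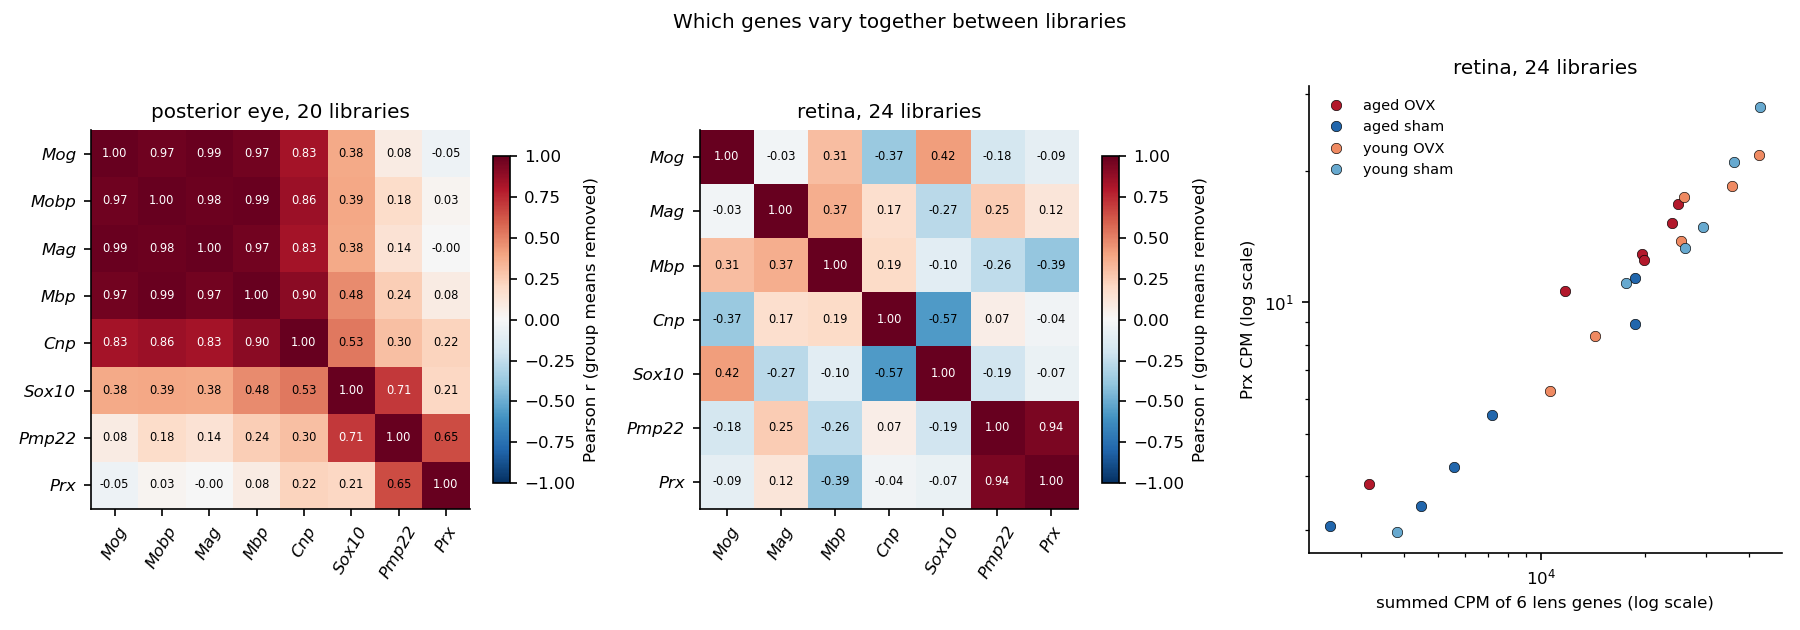
Pearson's r between members over the 20 posterior eye libraries with at least 100 Mobp counts (left) and over 24 retina libraries (middle), from log2 CPM with group means removed, and Prx CPM against the summed CPM of 6 lens genes in the 24 retina libraries on log axes (right, coloured by group). Mog, Mobp, Mag, Mbp and Cnp form a block in the left panel, and among retina libraries Prx and Pmp22 pair at 0.94 and Prx climbs with the lens genes.

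In the posterior eye the 4 libraries low in Mobp stand apart, so r is given over the other 20. Of 28 pairs, 12 passed, all positive. Between Mog, Mobp, Mag and Mbp r ran from 0.97 to 0.99, with a permutation p of 1e-05 for each of the 6 pairs. Mobp and Mbp, for example, had r = 0.99 and rho = 0.99 (permutation p = 1e-05, adjusted p = 4e-05), with r = 0.98 without the 2 farthest libraries. Cnp went with them less tightly, from r = 0.83 with Mag and Mog to 0.90 with Mbp. Prx and Pmp22 had r = 0.65 and rho = 0.67 (permutation p = 0.0075, adjusted p = 0.017), with r = 0.55 without the 2 farthest. Pmp22 and Sox10 had r = 0.71 and rho = 0.60 (permutation p = 0.0022, adjusted p = 0.0055), with r = 0.53 without them. Prx with Mog, Mobp, Mag and Mbp gave r between -0.05 and 0.08, with adjusted permutation p-values of 0.9 to 0.995.

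Among 88 relations with marker lists over the same 20 libraries, 6 passed. Astrocyte markers went with Mbp at r = 0.90, Mobp at 0.89, Mag at 0.89 and Mog at 0.88 (adjusted permutation p = 0.00088 for each, rho 0.82 to 0.84), and at r = 0.79 to 0.83 without the 2 farthest libraries. They went with Cnp at r = 0.81 and rho = 0.72 (permutation p = 0.0013, adjusted p = 0.019), with r = 0.52 without the 2 farthest libraries. Sox10 went with melanocyte markers at r = 0.82 and rho = 0.82 (permutation p = 0.0001, adjusted p = 0.0018), with r = 0.76 without the 2 farthest. No gene's level in the posterior eye was related to its level in the retina of the same animal past the threshold. Over 7 genes and 24 animals r lay between -0.28 and 0.22, with adjusted permutation p-values of 0.57 to 0.98. The OVX effect differed between tissues for 0 of 8 members, where 0.00583% of 17153 genes were called, with Mag at 0.85 ± 0.68 and Prx at -0.31 ± 0.34 (posterior eye minus retina, adjusted p = 1 by edgeR for both).

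The genes most like each member over 24 libraries, by Pearson's r of log2 CPM with group means removed and among genes with a mean of at least 2 CPM, are given as a description, since libraries share depth and tissue makeup. In the posterior eye (12942 genes searched) Prx had Apold1 at r = 0.76 and S1pr1 at 0.75 among its nearest 3 genes. Mobp had Opalin at 0.96, Mbp had Mog at 0.98, Mog had Mbp at 0.98 and Mag had Mobp at 0.96. Sox10 had Rasgrp3 at 0.96, Pmp22 had Ddah2 at 0.94 and Cnp had Plxnb3, a semaphorin receptor, at 0.85. In the retina (12015 genes searched) Prx had Tubb6 and Cryaa, the alpha-A crystallin of the lens, both at 0.98, and Pmp22 had Fgfr3 at 0.98. The nearest genes of the other retinal members were less alike, Dock6 at 0.79 for Mag, Gpr62 at 0.78 for Mog, Marc2 at 0.77 for Cnp, Amph at 0.76 for Sox10 and Nmnat3 at 0.73 for Mbp.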

How the data were processed

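RNA counts per gene were analysed for 24 posterior eye and 24 retina libraries from the same 24 animals. For either tissue the authors deposited a gene-by-library table of raw, whole-number counts. SMART-Seq v4 cDNA from 10 ng of RNA was turned into Nextera XT libraries and sequenced on a NovaSeq, per the labels' protocols, which mention no marking of strand. Reads of a gene and of an overlapping or antisense gene cannot be told apart, and PCR copies are counted as reads. The submitters' processing notes name STAR 2.7.3a, HTSeq, DESeq2 and the build Rnor_6.0. Which annotation and HTSeq options were used is not given in the sources used here. RefSeq windows are of another build, GRCr8, and were used for their sequence only.

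The tests used edgeR 4.0.16 in R 4.3.3: TMM scaling, filterByExpr with its minimum count of 10, 1 mean per group over the 24 libraries of a tissue (all 48 for tissue comparisons, leaving out gene names turned into dates), the quasi-likelihood F test, two-sided, and Benjamini-Hochberg adjustment over all genes tested. SEs are approximate and were taken as |log2 fold change| over the root of F. Fold changes of low genes depend on edgeR's prior count. Levels are CPM on the TMM scale and are not per length, so levels are not compared between genes. Correlations used log2 CPM with a prior count of 2 and 100000 permutations within groups, with adjustment over each family of relations. Simulated data were used to try only the edgeR test of young OVX against young sham, in each tissue.

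Groups and animal numbers came from the sample titles. Same-numbered libraries of both tissues are from the same animal, which makes them pairs; the correlation of their deviations from the group means over 17153 genes had a median of 0.06 and was over 0.1 in 6 of 24 animals. Alternatives were DESeq2's size factors, DESeq2 1.42.0, limma-voom 3.58.1, no filter, fits of 2 groups, the animal as a block, leaving out each library, and, added after seeing the data, the 20 posterior eye libraries with at least 100 Mobp counts and the relations with marker lists. All 8 members were named in every comparison; of the other myelin lists, called genes, up to 3 by p in each direction, and the 2 of highest mean CPM could be named, and the nearest 3 genes by r. Other named genes were chosen after their values were seen. The members and lists were chosen with earlier results of these data known. Some items are not reported here.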

Additional observations from a re-analysis of the deposited data

Results flagged for a closer look

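Among 64 sets of 6 libraries (8 genes, 4 groups, both tissues), 8 had 1 library far from the rest by Dixon's test at 95%, which flags about 1 in 20 such sets by chance. In the posterior eye, young OVX animal 12 was far above the other 5 animals of its group in Mbp (2549 CPM), Mog (46.4 CPM), Mobp (282 CPM) and Cnp (271 CPM). These 4 values come from 1 library and are not independent of each other. The same library held the highest summed astrocyte marker level, 730 CPM. Aged sham animal 13 was far above its group in Mog, at 10.9 CPM. In the retina, young OVX animal 7 was far above its group in Mbp (22.6 CPM) and in Mobp (0.546 CPM), and aged OVX animal 19 in Mobp (0.603 CPM). The retinal Mobp values rest on 11 counts each. No cause was tested.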

How the results depend on the processing

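The number of members called was 0 in every within-tissue comparison under all alternatives but these: DESeq2 called 1 member, Sox10, for aged against young OVX retinas and for the retinal interaction, and edgeR without aged OVX replicate 24 called Sox10 for aged against young OVX retinas, so leaving out libraries gave 0 to 1. Between tissues 7 members were called, and 8 with the animal as a replicate block or by limma-voom, Prx being the addition; the block changed no other call of a member. Signs of uncalled differences turned in the following. By limma-voom these were the posterior eye interaction of Mog (0.18), young OVX over young sham retinas for Prx (0.045) and Mog (0.038), the mean OVX effect on retinal Mag (-0.0085) and aged over young OVX retinas for Mag (0.045). In the 20 posterior eye libraries with at least 100 Mobp counts they were aged OVX over aged sham for Mog (-0.042), Mobp (-0.28) and Cnp (0.035) and aged over young sham for Mobp (0.014).

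Leaving out 1 library at a time turned the sign of 17 differences. In the posterior eye these ran, for aged OVX over aged sham, from -0.19 to 0.022 for Prx, -0.031 to 0.096 for Pmp22, -0.24 to 0.76 for Mobp and -0.087 to 0.064 for Cnp, for aged over young sham from -0.025 to 0.20 for Prx, and for the interaction from -0.27 to 0.054 for Sox10. In the retina they ran, for young OVX over young sham, from -0.31 to 0.17 for Prx, -0.070 to 0.18 for Pmp22 and -0.13 to 0.16 for Mog, for the mean OVX effect from -0.037 to 0.10 for Mag and -0.20 to 0.10 for Sox10, for aged OVX over aged sham from -0.047 to 0.028 for Cnp, for aged over young sham from -0.0082 to 0.040 for Cnp, for aged over young OVX from -0.17 to 0.092 for Mag, -0.23 to 0.034 for Mbp and -0.032 to 0.22 for Mog, and for the interaction from -0.15 to 0.11 for Mbp.

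Counts over all genes moved more. DESeq2 called 67, 27, 10, 93 and 5 genes in the posterior eye for the mean OVX effect, OVX in aged and in young animals, and age in OVX and in sham animals, against 0, 0, 1, 0 and 0 by edgeR; in the retina it called 48, 9, 63, 67 and 68 in that order and 22 for the interaction, against 8, 1, 3, 11, 6 and 7. Fits of 2 groups called 0 for OVX in young and 1 for age in OVX posterior eyes, and 17 for age in OVX retinas. With no filter 0 were called for OVX in young retinas, and by limma-voom 0 for OVX in aged retinas and 1 for age in OVX posterior eyes. In the 20 libraries 1 was called for age in sham and 1 in OVX animals. Leaving out 1 library gave, in the retina, 0 to 10 for the mean OVX effect, 0 to 4 for OVX in young, 2 to 16 for age in OVX and 0 to 24 for age in sham animals and 4 to 13 for the interaction. In the posterior eye it gave 0 to 5 for the mean OVX effect. DESeq2's test was not run for the fit of both tissues. Depth limits retinal Mobp, with 0 to 11 counts per library, and Sox10, with 4 to 75.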
